A study of Mus musculus with 3 samples.

Results

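The fatty acid synthesis genes Srebf1, Acly, Fasn, Scd1 and Scd2 were described by their listed DNase I hypersensitive sites, places where chromatin is open to cutting by DNase I. The members were all sites with their midpoint in 4 windows of the mouse genome build mm9: chromosome 11 from 59950000 to 60080000 (Srebf1), chromosome 11 from 100280000 to 100440000 (Acly), chromosome 11 from 120610000 to 120740000 (Fasn) and chromosome 19 from 44380000 to 44560000 (Scd1 and Scd2). The windows held 122 of the 172496 listed sites: 39 of 48308 from brown fat (BAT), 43 of 63214 from inguinal white fat (iWAT) and 40 of 60974 from epididymal white fat (eWAT). Sites from different lists were joined into 1 region where they overlapped or abutted, which gave 66 of the 99297 regions of the series. The windows were set by position, without any measured value.

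Each depot had 1 library, so no replicate error could be given and every difference below is between single libraries. The stromal-vascular cells of BAT (interscapular, cervical and axillary fat pooled), iWAT or eWAT came from male NMRI mice of 4 to 5 weeks. All 3 cultures were differentiated in medium with 10% newborn calf serum, 30 nM insulin and 1 µM rosiglitazone, an activator of the fat cell regulator PPARγ, and were harvested on day 8. Cultures were kept where more than 50% of cells had differentiated, so some cells of each library may not have been fat cells. Nothing in the labels gives the number of mice or cultures behind a library. Per site the authors deposited a normalized tag count, used here as the site's strength. These values were whole multiples of 0.857 in BAT, 0.985 in iWAT and 0.595 in eWAT, the worth of 1 sequence tag, and the median site held 14, 14 and 16 tags. Because no source used here gives the total behind the scaling, strength is given mainly as a percentile, the rank of a site within its own list. The identity of the cells was not checked against marker loci, since no mm9 gene positions were used here.

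De novo lipogenesis turns citrate from the mitochondria into fatty acids. ATP citrate lyase (Acly) cleaves citrate into acetyl-CoA, fatty acid synthase (Fasn) builds palmitate from malonyl-CoA, and the stearoyl-CoA desaturases (Scd1, Scd2) place a double bond in the product. Srebf1 encodes SREBP-1, a transcription factor that insulin signalling raises and that switches on many genes of this pathway. In fat cells the pathway feeds triglyceride storage, and in brown fat it also supplies fuel for heat production.

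The RefSeq table used for names (build GRCm38.p6) places Srebf1 between Rai1 and Tom1l2, Acly between Klhl11 and Ttc25, Fasn between Dus1l and Ccdc57, and Scd1 between Scd4 and Wnt8b. Scd2 lies between Scd3 and Scd4 in the same table. A site in a window can therefore belong to a neighbour, and no site is called the promoter or enhancer of a gene here. The start of Scd2 was not placed on mm9, and it may lie left of the window, near the strong sites outside it that are given last.

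RefSeq promoters were at hand for 5 starts of 3 members: 1 of Fasn, 1 of Acly and 3 of Srebf1. They are shown because SREBP-1 is known to act at the Fasn promoter together with NF-Y, the factor that binds the CCAAT box. The 250 bases before each start were searched on both strands for the sterol regulatory element TCACNCCAC, the E-box CACGTG and the CCAAT box (CCAAT or ATTGG). The CCAAT box was found in 3 of the 5 promoters, against 33.8% of all 32851 promoters of the table. TCACNCCAC and CACGTG were in none of the 5, and in 1.05% and 6.02% of all promoters. No match says only that these letters are not in this window. The 3 promoters with a match are printed 5′ to 3′ on the minus strand of GRCm38.p6, with the CCAAT box in capitals; their positions cannot be set beside the mm9 positions of the sites.
Fasn, chr11:120824548-120824797: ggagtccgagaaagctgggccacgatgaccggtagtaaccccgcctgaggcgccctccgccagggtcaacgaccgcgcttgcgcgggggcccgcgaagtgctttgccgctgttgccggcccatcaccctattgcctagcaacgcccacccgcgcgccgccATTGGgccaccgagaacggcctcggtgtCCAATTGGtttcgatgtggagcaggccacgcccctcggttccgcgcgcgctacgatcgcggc
Srebf1 start farthest upstream, chr11:60222582-60222831: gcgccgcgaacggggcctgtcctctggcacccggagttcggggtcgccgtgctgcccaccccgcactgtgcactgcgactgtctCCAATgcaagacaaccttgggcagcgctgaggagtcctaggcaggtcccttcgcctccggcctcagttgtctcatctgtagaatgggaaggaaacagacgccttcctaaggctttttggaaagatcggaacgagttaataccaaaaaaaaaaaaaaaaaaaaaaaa
Srebf1 start farthest downstream, chr11:60210472-60210721: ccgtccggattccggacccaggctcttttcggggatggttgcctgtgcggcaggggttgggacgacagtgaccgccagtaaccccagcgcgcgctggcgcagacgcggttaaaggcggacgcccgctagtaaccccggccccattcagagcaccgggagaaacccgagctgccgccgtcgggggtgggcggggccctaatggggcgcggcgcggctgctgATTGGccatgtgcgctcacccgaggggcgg
Fasn held 3 matches, beginning 90, 62 and 59 bases before the start, of which the last 2 overlap in a palindrome. The Srebf1 promoters held 1 match each, beginning 166 and 30 bases before their start.

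Sites were dense in the windows in every depot. BAT listed 6.50 sites per 100 kb of the windows, against 1.88 over its whole list, iWAT 7.17 against 2.46, and eWAT 6.67 against 2.37. The whole-list values are averages over the full span of the chromosomes, while the windows were placed at genes. Windows at other genes were not counted, so the density cannot be called particular to these loci. The Scd1 and Scd2 window was the densest, with 17 sites in BAT, 19 in iWAT and 18 in eWAT over 180 kb. The Fasn window (130 kb) held 9, 10 and 7 sites, the Srebf1 window (130 kb) 9, 5 and 8, and the Acly window (160 kb) 4, 9 and 7. BAT thus made up 4 of 20 sites at Acly (20%, exact 95% binomial interval 5.73 to 43.7) and 9 of 22 at Srebf1 (40.9%, 20.7 to 63.6). Both intervals include the 28.0% that BAT makes up of all listed sites. Such intervals cover counting error only.

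**Figure D1:**
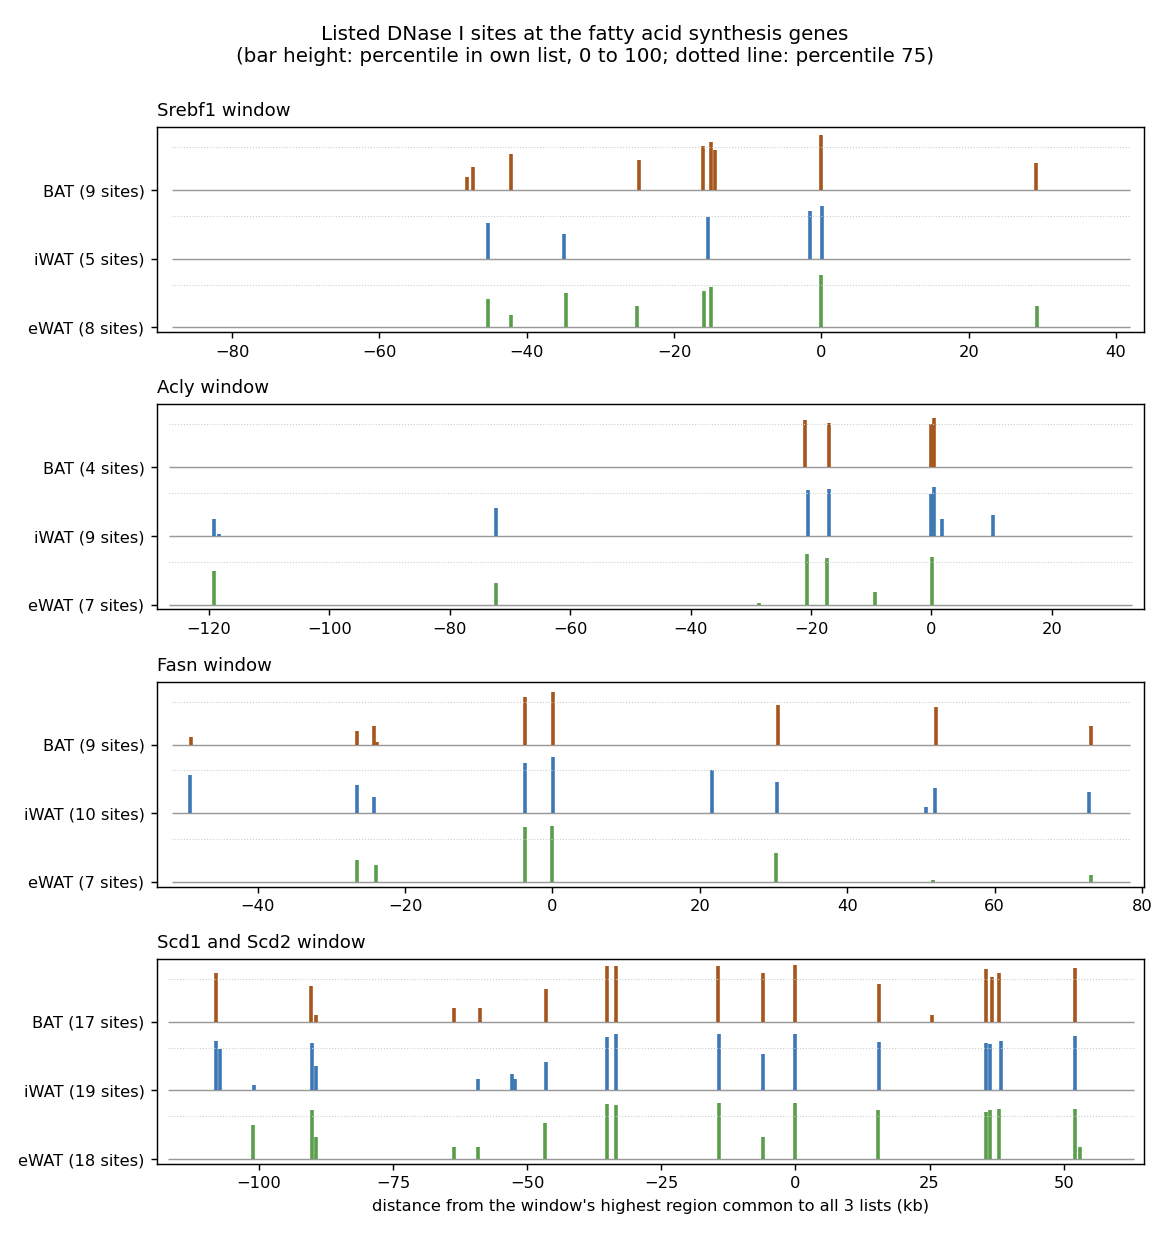
Listed sites in the windows of Srebf1, Acly, Fasn, and Scd1 with Scd2, with the distance in kb from the window's highest region common to all 3 lists on the x axis and a row each for BAT, iWAT and eWAT. Bar height is the site's percentile in its own list and the dotted line marks percentile 75; the tallest bars of the Scd1 and Scd2 window stand at the same places in all 3 rows, while the Acly row of BAT holds 4 sites only.

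Strong sites, defined as those above percentile 75 of their own list, made up a larger share of the windows than of the lists. They made up 19 of 39 window sites in BAT (48.7%, 95% interval 32.4 to 65.2), against 26.2% of the whole BAT list. In iWAT they were 19 of 43 (44.2%, 29.1 to 60.1), against 26.1% of the list, and in eWAT 16 of 40 (40%, 24.9 to 56.7), against 25.6%. The list share lies below the interval in BAT and iWAT and inside it in eWAT, which turned with 2 other settings. With windows widened by 30 kb the iWAT share was 36.7% (24.6 to 50.1), an interval that includes 26.1%. With lists of equal length the eWAT share was 47.1% (29.8 to 64.9), an interval above the 25.6% of the full list. The lists cover the whole genome, while the windows were placed at genes. Windows at other genes were not ranked, so the larger share of strong sites cannot be called particular to these loci. Above percentile 90 stood 8 BAT, 7 iWAT and 7 eWAT window sites, a level that 10.2%, 10.2% and 9.68% of the lists reached. Most of the strong sites lay in the Scd1 and Scd2 window: 10 of 17 BAT sites of the Scd1 and Scd2 window were strong, 11 of 19 iWAT sites and 10 of 18 eWAT sites. At Fasn 2 of 9, 3 of 10 and 2 of 7 were strong, and at Srebf1 3 of 9, 2 of 5 and 1 of 8. At Acly all 4 BAT sites were strong, against 3 of 9 in iWAT and 3 of 7 in eWAT.

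The strong window sites had a lower median fold over their surroundings than the strong sites of the whole lists. The authors' fold over local background had a median of 6.33 for the strong window sites of BAT, 6.13 for those of iWAT and 7.06 for those of eWAT, where the strong sites of the whole lists had 12.3, 12.9 and 9.77. Ranked by this fold in place of the tag count, 7 of 39 window sites of BAT, 6 of 43 of iWAT and 8 of 40 of eWAT were above percentile 75 (17.9%, 14.0% and 20%, against 25%, 24.9% and 25% of the lists). Of the strong window sites, 3 of 19 in BAT, 4 of 19 in iWAT and 5 of 16 in eWAT were above percentile 75 by fold as well. Among the strong sites of the whole lists, 47.9%, 44.1% and 48.8% were. The lowest fold in each list was 4.

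**Figure D2:**
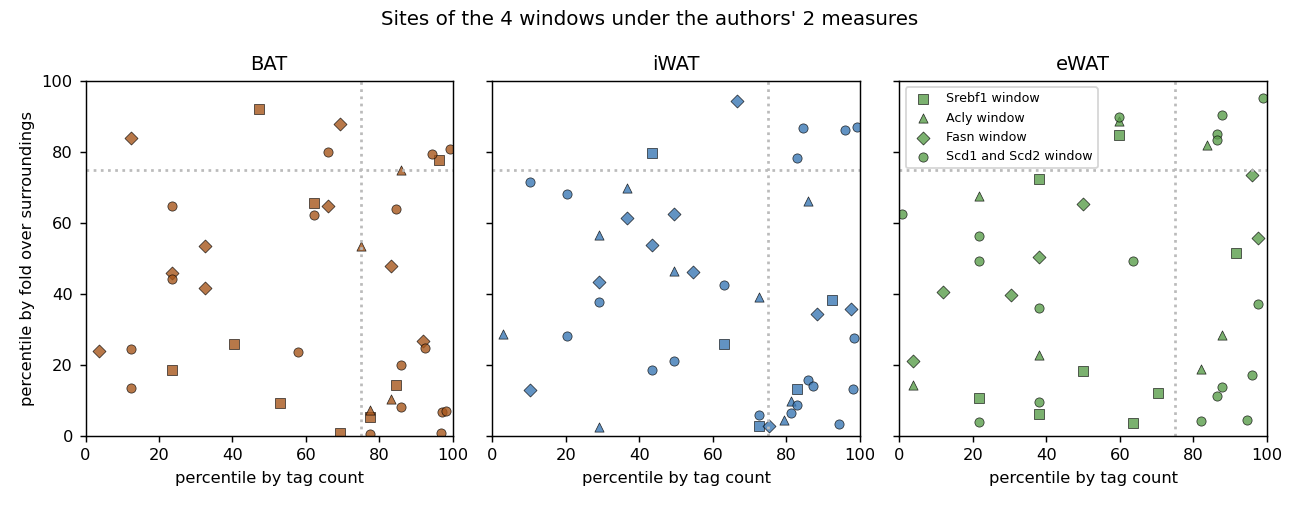
Each window site by its percentile for tag count (x axis) and for fold over the surroundings (y axis), in 1 panel each for BAT, iWAT and eWAT, with a marker shape per window and dotted lines at percentile 75. The lower right field of each panel, strong by tags and not by fold, holds 16 of the 19 strong sites in BAT, 15 of 19 in iWAT and 11 of 16 in eWAT. Of the strong sites of the whole lists, 47.9%, 44.1% and 48.8% were above percentile 75 by fold as well.

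The share of regions listed in all 3 depots was close to that over all regions. Of the 66 regions, 17 were common to the 3 lists (25.8%, 95% interval 15.8 to 38.0), against 25.2% of all regions. Another 21 were in exactly 2 lists (31.8%, against 23.3%): 5 in BAT and iWAT, 8 in BAT and eWAT, and 8 in iWAT and eWAT, classes that held 6.73%, 5.32% and 11.3% of all regions. The last 28 were in a single list (42.4%, 30.3 to 55.2, against 51.5%). The windows differed from each other: 11 of 26 regions were common at Scd1 and Scd2 (42.3%, 23.4 to 63.1), 4 of 13 at Fasn, 1 of 13 at Acly and 1 of 14 at Srebf1. The intervals of all 4 windows include the 25.2% of all regions. With sites up to 200 bp apart merged as well, 47.3% of window regions were common (33.7 to 61.2), against 34.6% of all regions. Where the 3 lists held 1 site each in a region, which was so in 16 of the 17, the site centres lay close together, with a median spread of 45 bp against 73 bp over all 24988 such regions.

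**Figure D3:**
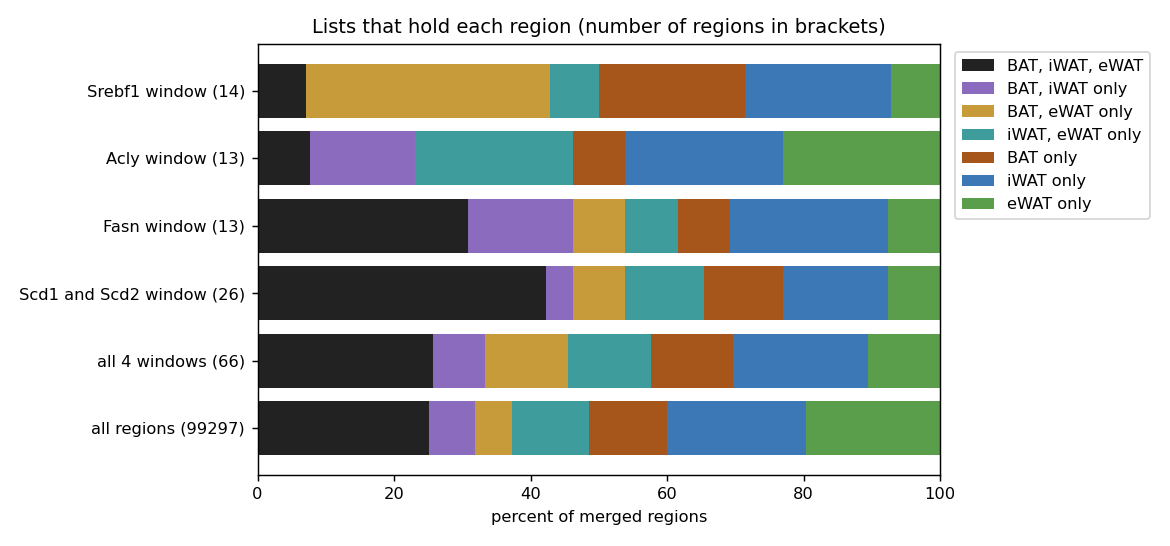
Percent of merged regions (x axis) by the lists that hold them, for each gene window, for the 4 windows together and for all 99297 regions. The black part, listed in BAT, iWAT and eWAT, is 25.8% in the 4 windows and 25.2% over all regions, and the part listed in BAT and eWAT only is widest at Srebf1, with 35.7%.

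At Srebf1, the gene of the regulator, 1 region was common to the 3 lists, on chromosome 11 at 60038035 to 60038295. It held the highest site of the window in every depot, with 36.0 normalized tags in BAT (percentile 96.3), 33.5 in iWAT (percentile 92.4) and 20.2 in eWAT (percentile 91.5). Its percentiles in the 3 lists were all above 90. After division of each list by its median over common regions, the tag count of BAT was 1.37 times that of iWAT (95% counting interval 0.85 to 2.23) and 1.44 times that of eWAT (0.90 to 2.34). That of iWAT was 1.05 times that of eWAT (0.63 to 1.74). All 3 intervals include 1.

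Of the 14 Srebf1 regions, 7 were in a single list and 1 was in iWAT and eWAT. Another 5 were listed in BAT and eWAT and not in iWAT (35.7%, 95% interval 12.8 to 64.9), a class that made up 5.32% of all regions. The interval was not adjusted for the 7 classes and 4 windows looked at. With the top 50% of each list the share was 20% (2.52 to 55.6), an interval that includes the 5.32% of the full lists. The highest of the 5 regions lay at 60023052 to 60023276, with 22.3 normalized tags in BAT (percentile 84.5) and 12.5 in eWAT (percentile 70.3). A second one lay nearby at 60022026 to 60022314, with 18.8 in BAT (percentile 77.4) and 11.3 in eWAT (percentile 63.7). Between these 2 regions iWAT listed a site of its own at 60022644 to 60022866, with 19.7 normalized tags (percentile 72.6) and 186 bp from the nearest BAT site. The iWAT site overlapped no site of the other lists, while the BAT and eWAT sites on either side of it overlapped each other. The other 3 regions of BAT and eWAT were weak in eWAT, with percentiles of 21.7 to 38.0, and stood at percentiles 47.1 to 62.2 in BAT. The highest site that only iWAT listed lay at 60036447 to 60036669, with 24.6 normalized tags (percentile 82.9), 1366 bp from the nearest BAT site. BAT alone listed 60023629 to 60023851 (16.3 normalized tags, percentile 69.3), 353 bp from the nearest eWAT site, and eWAT alone listed 60003421 to 60003641 (10.7, percentile 59.7), 57 bp from an iWAT site.

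At Acly, the enzyme that supplies acetyl-CoA, the strong sites fell in 3 stretches, each with sites of all lists. The first was a run of sites between 100385576 and 100386179, with 21.4 normalized tags in BAT (percentile 83.0), 22.7 in iWAT (percentile 79.5) and 17.8 in eWAT (percentile 87.8). The BAT site there overlapped neither of the others, but its gap to the eWAT site was 43 bp. A second stretch spanned 100389132 to 100389702, with 18.8 in BAT (percentile 77.4), 23.6 in iWAT (percentile 81.3) and 15.5 in eWAT (percentile 82.0), the last 113 bp from the BAT site. The third held 100406474 to 100406773, the only region of the window common to the 3 lists, with 18.0 in BAT (percentile 75.04), 19.7 in iWAT (percentile 72.6) and 16.1 in eWAT (percentile 83.6). In these 3 sets of values every depot stood above percentile 70. In the common region the scaled tag count of BAT was 1.17 times that of iWAT (0.60 to 2.27) and 0.91 times that of eWAT (0.49 to 1.67).

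Beside the common Acly region, a neighbouring region at 100406956 to 100407216 was listed in BAT with 23.1 normalized tags and in iWAT with 26.6, both at percentile 86.0. It was the highest of the window in both lists, while eWAT listed no site there. The highest eWAT site of the window was that of the first stretch. The remaining Acly sites were weak, and BAT listed none of them: iWAT and eWAT shared 100287350 to 100287606 (percentiles 29.0 and 59.7) and 100334132 to 100334418 (percentiles 49.4 and 38.0). The others were listed in iWAT alone at percentiles up to 36.7 or in eWAT alone at percentiles up to 21.7. A place that a list lacks cannot be called closed, because only listed sites carry a tag count.

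At Fasn, which builds the fatty acid chain, 2 regions stood out in every depot. The highest lay on chromosome 11 at 120661533 to 120661797, with 28.3 normalized tags in BAT (percentile 91.8), 46.3 in iWAT (percentile 97.5) and 28.5 in eWAT (percentile 97.6). The next lay at 120657791 to 120658053, with 21.4 in BAT (percentile 83.0), 28.6 in iWAT (percentile 88.4) and 25.0 in eWAT (percentile 95.9). BAT ranked lowest of the depots at both. The median percentile over all 24988 regions with 1 site per list was also lowest in BAT. It was 66.0 in BAT, 72.6 in iWAT and 70.3 in eWAT. The scaled tag count of BAT at the higher region was 0.78 times that of iWAT (95% counting interval 0.48 to 1.24) and 0.80 times that of eWAT (0.50 to 1.28), and both intervals include 1. At the second region it was 0.96 times that of iWAT (0.54 to 1.70) and 0.70 times that of eWAT (0.41 to 1.17).

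The other 2 common Fasn regions were weak. That at 120634974 to 120635245 held 9.42 normalized tags in BAT, 13.8 in iWAT and 8.33 in eWAT (percentiles 23.4, 49.4 and 38.0). The region at 120637334 to 120638019 held 2 BAT sites of 10.3 and 7.71 normalized tags and 1 site each of iWAT (10.8) and eWAT (7.73). A site at 120683275 to 120683497 was listed in iWAT alone, with 20.7 normalized tags (percentile 75.1), 4.56 times above its surroundings and 8377 bp from the nearest site of another list. It was the single-list site of the window with the highest rank. BAT alone listed 120692228 to 120692450 (16.3 normalized tags, percentile 69.3), but its gap to an iWAT site of 14.8 normalized tags, which overlapped an eWAT site of 9.52, was 22 bp. The only region held by eWAT alone lay at 120713263 to 120713483, with 5.95 normalized tags (percentile 3.80), 35 bp from an iWAT site. Of the 5 single-list sites of the window, 3 had a site of another list within 200 bp.

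The desaturase window held the strongest sites of the gene set. Its highest region, on chromosome 19 at 44496844 to 44497096, had 50.5 normalized tags in BAT, 59.1 in iWAT and 33.9 in eWAT. It stood at percentiles 99.1, 99.1 and 98.9, and was 13.8, 17.4 and 15.6 times above its surroundings. The scaled tag count of BAT was 1.09 times that of iWAT (95% counting interval 0.75 to 1.59) and 1.21 times that of eWAT (0.83 to 1.77), and that of iWAT 1.11 times that of eWAT (0.76 to 1.62). With 59, 60 and 57 tags this was the best counted region of the set. Its percentiles were nearly the same in all depots, but a region picked for the highest summed percentile leaves them little room to differ.

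Next came 44482513 to 44482771, with 42.8 normalized tags in BAT (percentile 98.1), 51.2 in iWAT (percentile 98.4) and 28.5 in eWAT (percentile 97.6). A close pair followed: 44463433 to 44463733 had 37.7 in BAT (percentile 96.9), 50.2 in iWAT (percentile 98.2) and 23.2 in eWAT (percentile 94.6). Its partner at 44461788 to 44462015 had 38.5 in BAT (percentile 97.1), 36.4 in iWAT (percentile 94.2) and 25.0 in eWAT (percentile 95.9). These 3 regions stood 4.18 to 7.36 times above their surroundings, a low fold for their tag counts. The last of the 5 highest was 44548877 to 44549177, with 31.7 in BAT (percentile 94.2), 40.4 in iWAT (percentile 95.9) and 17.8 in eWAT (percentile 87.8). All 5 were strong in every depot. They were picked for the highest summed percentiles of the window over the 3 lists, so this follows largely from the choice. Each interval of their ratios between depots included 1.

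**Figure D4:**
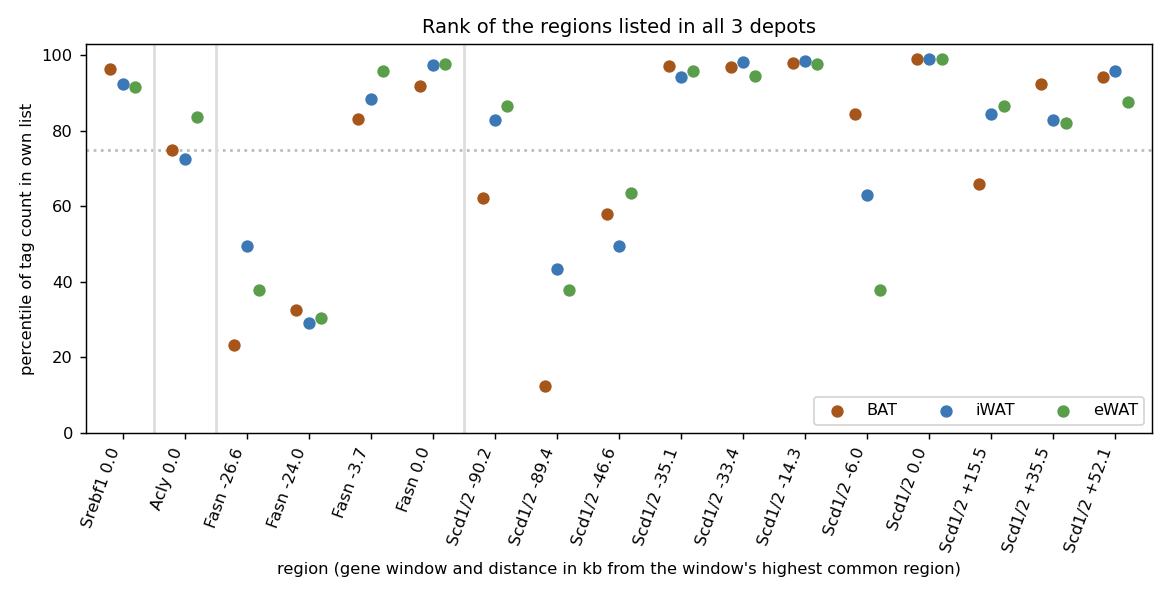
Percentile of tag count in its own list (y axis) for the 17 regions listed in all 3 depots, ordered by gene window and by distance in kb from the window's highest common region, with a point each for BAT, iWAT and eWAT and a dotted line at percentile 75. The points of a region mostly lie close together. Those of the Scd1 and Scd2 region at -6.0 kb are spread from 84.5 in BAT over 63.1 in iWAT to 38.0 in eWAT. Wide spreads with BAT lowest are those of the Scd1 and Scd2 regions at -90.2, -89.4 and 15.5 kb and the Fasn region at -26.6 kb.

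Only 1 of the 16 regions with 1 site per list differed past 2-fold between depots. It lay at 44490859 to 44491127, between the highest and the second desaturase region, and had 22.3 normalized tags in BAT (percentile 84.5), 16.7 in iWAT (percentile 63.1) and 8.33 in eWAT (percentile 38.0). These stood for 26, 17 and 14 tags. The scaled tag count of BAT was 2.17 times that of eWAT (log2 ratio 1.12, 95% counting interval of the ratio 1.09 to 4.50). Over all common regions 2.54% were past 2-fold higher in BAT than in eWAT and 2.66% past 2-fold lower. BAT was 1.70 times iWAT (0.89 to 3.34) and iWAT 1.28 times eWAT (0.59 to 2.80), and both of these intervals include 1. Among the 16 regions and 3 pairs of depots, this was the only interval that left out 1, and the intervals were not adjusted for their number. With sites up to 200 bp apart merged and their tags summed, 3 of 26 regions were past 2-fold higher in BAT than in eWAT. At that setting 3.35% of all common regions were. In the Acly region among them, more than 1 BAT site was summed against a single eWAT site.

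In the other directions none of the 16 compared regions passed 2-fold. The 17th common region, at Fasn from 120637334 to 120638019, was not compared because BAT listed 2 sites there; with sites up to 200 bp apart merged and their tags summed, it was past 2-fold higher in BAT than in iWAT (log2 ratio 1.09). The share of all common regions that did was 3.19% for BAT higher than iWAT and 2.46% for lower, and 1.48% for iWAT higher than eWAT and 2.58% for lower. The median ratio over the 16 regions was 1.04 for BAT over iWAT, 1.09 for BAT over eWAT and 1.02 for iWAT over eWAT, against 1.02, 0.98 and 0.96 over all common regions. BAT was above iWAT in 9 of 16 regions and above eWAT in 8, and iWAT was above eWAT in 9. The comparisons share libraries, so their values are set side by side only.

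**Figure D5:**
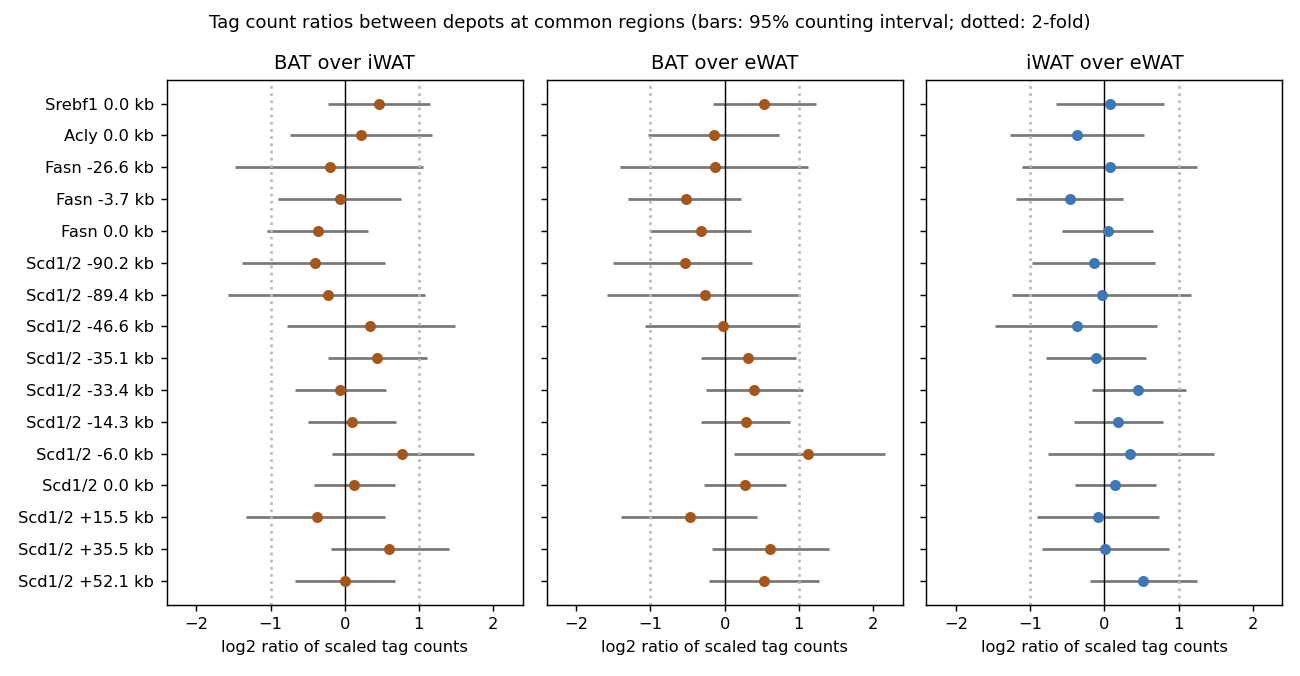
Log2 ratio of scaled tag counts (x axis) for the 16 regions with 1 site in each list, in panels for BAT over iWAT, BAT over eWAT and iWAT over eWAT; bars are 95% counting intervals and dotted lines mark 2-fold. All points but 1 lie within 2-fold, the exception being the Scd1 and Scd2 region at -6.0 kb in the panel of BAT over eWAT, at 1.12.

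The remaining common desaturase regions spanned a wide range of ranks. That at 44532326 to 44532579 had 29.1 normalized tags in BAT (percentile 92.5), 24.6 in iWAT (percentile 82.9) and 15.5 in eWAT (percentile 82.0), and BAT was 1.51 times iWAT (0.88 to 2.64). Those at 44406616 to 44406894 and 44512342 to 44512586 ranked lower in BAT (percentiles 62.2 and 66.0) than in iWAT (82.9 and 84.5) and eWAT (86.5 at both). Their BAT tag counts were 0.76 and 0.77 times those of iWAT (0.38 to 1.46 and 0.40 to 1.46). Percentiles over all common regions also ran lower in BAT, with a median of 66.0 against 72.6 in iWAT and 70.3 in eWAT. The regions at 44407453 to 44407745 and 44450192 to 44450619 stayed below percentile 75 in every list.

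To the right of the common region at 44532326 to 44532579 the lists held strong sites side by side. iWAT and eWAT shared 44533086 to 44533374, with 23.6 and 17.2 normalized tags, and the BAT site at 44533526 to 44533748, with 18.8 (percentile 77.4), lay 152 bp away. It was the highest site of the window that only BAT listed. BAT and eWAT shared 44534775 to 44535083, with 23.1 and 17.8 normalized tags. The highest site that only iWAT listed, with 27.6 (percentile 87.2), lay just beyond it at 44535185 to 44535407. eWAT alone listed 2 weak sites, the higher with 7.14 normalized tags (percentile 21.7). At the left edge of the window, BAT and iWAT shared 44388903 to 44389145, with 23.1 and 26.6 normalized tags, both at percentile 86.0, and eWAT listed no site there.

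Over the 4 windows, 28 sites were listed in a single depot: 8 in BAT, 13 in iWAT and 7 in eWAT (12.1%, 19.7% and 10.6% of the 66 regions, against 11.4%, 20.5% and 19.6% of all regions). Of these 28, 11 had a site of another list within 200 bp and 16 within 1 kb. Strong ones numbered 2 in BAT, 3 in iWAT and 1 in eWAT. Of these 6, 4 had a site of another list within 200 bp, and the other 2 were the iWAT sites at 60036447 and 120683275. How many of all single-list sites are strong, or have a neighbour that near, was not counted. The counts of strong single-list sites and of those within 200 bp and 1 kb, also that at Fasn, therefore cannot be set against the whole lists.

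Sites just outside the windows were not members. Left of the desaturase window, where Scd2 may start, lay strong sites of every list: 24.8 normalized tags in BAT at 44370009 to 44370231 (percentile 88.4), 33.5 in iWAT at 44368528 to 44368750 (percentile 92.4), and 18.4 in eWAT at 44370182 to 44370402 (percentile 88.8). They lay 9.77, 11.25 and 9.598 kb outside the window and stood 4.05, 4.55 and 4.16 times above their surroundings, at the lower limit of the lists. The nearest sites inside were those at 44388903 in BAT and iWAT and an eWAT site at 44395754 to 44395974 with 10.7 normalized tags. Outside the other windows the nearest sites lay 2.93 to 34.8 kb away. The strongest of these was an eWAT site right of the Fasn window at 120766862 to 120767082, with 20.2 normalized tags (percentile 91.5), where BAT listed 15.4 (percentile 66.0) and iWAT 20.7 (percentile 75.1).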

How the data were processed

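DNase-seq sites of 3 libraries were used, 1 each from adipocytes grown from BAT, iWAT and eWAT. Per the submitters' processing notes, the tools were STAR and HOMER and the build mm9; roles, versions and settings are not stated. Column headers of the deposited files match the output of findPeaks, HOMER's peak caller. The deposited values per site are a normalized tag count (a signal scaled by the authors to a total that no source used here gives), a findPeaks score, a focus ratio (a fraction), a fold (ratio) over local background, its p-value and a clonal fold. The deposited lists hold only sites at a fold of 4 or more. Of the tag counts, 100.0% in each list were whole multiples of 1 step, within 0.05 (0.005 below 10).

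Sites were merged where they overlapped by at least 1 bp or touched, and percentiles were ranks of tag count in the own list, ties at their mean rank. For ratios, tag counts were divided by the list's median over the 24988 regions with 1 site per list (15.4 in BAT, 19.7 in iWAT and 12.5 in eWAT). Intervals are exact binomial (Clopper-Pearson), conditional on the summed tags for ratios, and cover counting error only; sites of 1 library are not independent. No test between depots was made. The members and lists were chosen with earlier results of these data known. By position are named, per window, the highest region of each list, the common regions past 2-fold and the highest single-list sites. Named as well are the 5 common regions with the highest summed percentiles over the 3 lists. Other places, such as runs of sites that do not overlap, were named after their values were seen. Other genes of the pathway were not analysed here, since no mm9 annotation was used. The merging and ratio code was tested on simulated lists. Python 3.11.15, numpy 2.4.6, pandas 2.3.3, scipy 1.17.1 and matplotlib 3.10.9 were used.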

Additional observations from a re-analysis of the deposited data

How the results depend on the processing

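Each depot had 1 library, with a median of 14 tags a site in BAT and iWAT and 16 in eWAT. No paired analysis was possible because each depot has 1 library. The share of common regions, 25.8% as reported, was 47.3% with sites within 200 bp merged (34.6% of all regions) and 53.3% with those within 1 kb merged (38.4% of all regions), a setting chosen after seeing the data. Single-list regions numbered 4 in BAT, 9 in iWAT and 4 in eWAT of 55 window regions at 200 bp, and 2, 5 and 3 of 45 at 1 kb. With lists of equal length they numbered 10 in BAT, 10 in iWAT and 4 in eWAT of 59. With the top 50% of each list they numbered 7 in BAT, 7 in iWAT and 4 in eWAT of 42. The share of single-list regions over all regions was not taken at these settings, so the changes cannot be called particular to the windows. Ranked by fold over local background, 17.9% of BAT, 14.0% of iWAT and 20% of eWAT window sites were above percentile 75. With sites within 200 bp merged and their tags summed, 1 of 26 regions passed 2-fold higher in BAT than in iWAT (3.25% of all common regions). At that setting 3 of 26 passed higher in BAT than in eWAT (3.35% of all common regions). With tag counts as deposited, 3 of 16 regions passed higher in iWAT than in eWAT. This count was close to the share of all common regions that passed in that direction at that setting, 18.98%. The median log2 ratio of all common regions then lay at 0.60 for iWAT over eWAT. It lay at -0.32 for BAT over iWAT and 0.28 for BAT over eWAT. At a threshold of 1.5-fold, 2 of 16 regions passed higher in BAT than in iWAT and 2 of 16 higher in BAT than in eWAT. These counts were close to the shares of all common regions that passed, 13.8% and 10.6%. The region at 44490859 remained past 2-fold for BAT over eWAT with tags as deposited (log2 ratio 1.42) and with scaling by the 90th percentile (1.04). The cause of these shifts was not tested. With windows widened by 30 kb, Acly held 8 BAT, 15 iWAT and 15 eWAT sites and Srebf1 9 iWAT sites.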
